A study of Homo sapiens with 12 samples.

Results

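Interferon-induced effector genes encode the proteins that carry out the antiviral state: they bind or cut viral RNA, block entry and budding, or attach ubiquitin-like tags to other proteins. The 49 genes described here were chosen by symbol from the 17518 genes of the deposited count table, as antiviral and ubiquitin-like effectors, with sensors and signalling genes left out. All 49 were in the table and 48 passed the filter on low counts, the exception being OASL. The expression data are 12 RNA-seq libraries from MUTZ-1 and SKM-1, human marrow-derived lines that the labels describe as myelodysplastic syndrome cells, a clonal disorder of blood formation. Each line had 3 libraries of cells with a control short hairpin RNA (genotype given as WT) and 3 of cells with a hairpin against NUDT21, a subunit of the cleavage factor Im complex that takes part in the choice of the mRNA 3' end. The column names of all 6 knockdown libraries carry the mark sh1, which the labels do not explain, and neither the number of clones nor the time after introduction of the hairpins is given in the sources used here, and no library of uninfected cells was analysed. Lines were taken from the sample titles and the cell line label, because the design text once gives MUTZ-1 where SKM-1 would stand, and line identity was not tested. Nothing says that replicates came from separate cultures, so the tests capture the spread among these libraries alone, part of which may be technical.

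As background, type I interferon binds the receptor IFNAR1/IFNAR2, the kinases JAK1 and TYK2 become active, and the factor ISGF3, which holds STAT2 and IRF9, forms and enters the nucleus. ISGF3 binds the interferon-stimulated response element (ISRE) in the promoters of effector genes, while interferon gamma acts through the gamma-activated site (GAS). Many cells keep a low level of this programme without added interferon, and blood cell lines differ widely in that level.

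Total counts per library ran from 15843012 to 18426619. NUDT21 was at 301, 297 and 301 CPM (counts relative to library size, TMM-scaled) with the control hairpin in MUTZ-1 and 135, 136 and 142 CPM with its own hairpin, and in SKM-1 at 322, 336 and 344 CPM and 131, 132 and 129 CPM. Changes are given as log2 fold change (log2FC) with its standard error (SE). The labelled cell type was checked against markers: the summed level of 14 B-lineage genes was 2954 to 2961 CPM in MUTZ-1 control libraries and 16.9 to 22.1 CPM in SKM-1 control libraries. All 14 were at 1 CPM or more in MUTZ-1, while of 12 monocyte and granulocyte genes 10 were under 0.5 CPM there and of 6 stem and progenitor genes all 6 were. In SKM-1 the summed level of 12 erythroid genes went from 791 to 818 CPM in control libraries to 3081 to 3249 CPM after knockdown, with 12 of 12 called higher, and that of the monocyte and granulocyte genes from 19.5 to 22.6 CPM to 70.5 to 78.9 CPM. The latter sum was mostly CD33 (mean 8.55 to 39.8 CPM) and LYZ (9.12 to 25.3 CPM). Of the 12 monocyte and granulocyte genes, 8 were under 0.5 CPM in SKM-1 control libraries and 7 after knockdown. The B-lineage sum in MUTZ-1 was 2576 to 2637 CPM after knockdown. Whether these shifts have a part in the values of the effector genes was not tested, and in bulk RNA fewer cells of a type and less RNA per cell cannot be told apart.

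The promoters of 5 members that fell in MUTZ-1 are shown because they hold the core letters of the element that ISGF3 binds. They were picked for that core: XAF1 and SLFN11, which fell by more than ISG15, hold none, and DDX60 and IFI27 hold it but are not shown. RefSeq (GRCh38.p14) gave a promoter, 250 bases before to 50 after the annotated start, for 39 of the 49 members. Both strands were searched for the ISRE core, written as GAAA, any 2 bases and GAAA, and for the GAS, written as TTCNNNGAA. The sequences read 5′ to 3′ on the strand of the gene, and capitals mark the ISRE core in either orientation. The windows are IFI44L at chr1:78620198-78620497 (plus strand), MX1 at chr21:41420308-41420607 (plus strand), IFI44 at chr1:78649539-78649838 (plus strand), EPSTI1 at chr13:42992192-42992491 (minus strand) and ISG15 at chr1:1013247-1013546 (plus strand). SAMD9L at chr7:93148336-93148635 (minus strand) is shown as a member that fell without a core in its window.
IFI44L: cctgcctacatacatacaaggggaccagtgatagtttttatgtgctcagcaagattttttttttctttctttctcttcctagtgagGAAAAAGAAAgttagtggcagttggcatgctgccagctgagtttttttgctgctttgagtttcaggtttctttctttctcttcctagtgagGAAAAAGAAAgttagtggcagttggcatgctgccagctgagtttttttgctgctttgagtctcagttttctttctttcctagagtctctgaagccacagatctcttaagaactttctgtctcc
MX1: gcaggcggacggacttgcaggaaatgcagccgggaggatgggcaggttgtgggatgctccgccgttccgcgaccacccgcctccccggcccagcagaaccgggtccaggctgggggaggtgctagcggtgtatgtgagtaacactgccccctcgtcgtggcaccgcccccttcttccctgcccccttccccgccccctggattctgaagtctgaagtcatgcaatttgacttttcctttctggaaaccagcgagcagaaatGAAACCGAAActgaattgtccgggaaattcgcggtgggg
IFI44: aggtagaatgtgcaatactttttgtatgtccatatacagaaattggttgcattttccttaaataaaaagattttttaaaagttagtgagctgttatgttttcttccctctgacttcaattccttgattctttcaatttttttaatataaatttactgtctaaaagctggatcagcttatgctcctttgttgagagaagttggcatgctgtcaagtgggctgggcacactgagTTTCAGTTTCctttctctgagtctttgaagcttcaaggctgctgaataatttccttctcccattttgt
EPSTI1: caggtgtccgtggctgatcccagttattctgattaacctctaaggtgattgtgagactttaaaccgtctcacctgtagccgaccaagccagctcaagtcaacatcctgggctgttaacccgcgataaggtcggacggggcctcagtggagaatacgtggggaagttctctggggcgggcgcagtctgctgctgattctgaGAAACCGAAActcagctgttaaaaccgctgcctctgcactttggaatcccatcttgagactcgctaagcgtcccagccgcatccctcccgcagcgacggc
ISG15: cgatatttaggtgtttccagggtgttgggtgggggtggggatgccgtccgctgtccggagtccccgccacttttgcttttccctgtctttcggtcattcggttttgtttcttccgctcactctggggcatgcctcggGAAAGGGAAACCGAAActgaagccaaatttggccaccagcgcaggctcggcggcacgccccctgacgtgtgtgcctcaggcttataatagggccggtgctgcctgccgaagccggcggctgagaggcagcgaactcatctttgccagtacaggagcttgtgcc
SAMD9L: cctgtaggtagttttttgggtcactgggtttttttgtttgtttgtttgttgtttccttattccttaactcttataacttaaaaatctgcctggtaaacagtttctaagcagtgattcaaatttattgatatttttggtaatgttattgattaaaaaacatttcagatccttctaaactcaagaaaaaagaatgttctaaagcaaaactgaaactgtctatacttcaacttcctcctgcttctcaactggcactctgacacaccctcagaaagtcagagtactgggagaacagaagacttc

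In IFI44L the same core occurred at 2 places within a repeated stretch, in ISG15 2 overlapping cores formed one block, and in IFI44 the core lay on the other strand. The core was present in 26 of 39 member promoters (66.7%), against 3.57% of all 35116 promoters in the RefSeq table and 3.11% of the 13777 promoters of genes in the count table. The GAS was found in 10 of 39 (25.6%), against 7.66% and 6.65%. Among the 44 cores in member promoters, GAAACCGAAA occurred in 10 members, among them MX1, ISG15, EPSTI1, IFIT1 and IFITM3, and GAAACTGAAA in 10 members, among them IFI44, BST2, OAS3, SAMD9 and DTX3L. Of the 44 cores, 38 ended before the start, and 15 members had 2 or more. In MUTZ-1 22 of 26 members with a core and 13 of 13 without one were called lower, with median log2 fold changes of -0.92 and -1.05. The search allowed only a gap of 2 bases. Among the members counted as without a core, OAS1, RSAD2, XAF1, IFI35, SP110 and TRIM25 hold 2 GAAA blocks with 1 base between them, on either strand. The comparison is therefore not one of members with and without such repeats. A match is only a string of letters, and its absence, as in SAMD9L, SLFN11 or OAS1, says nothing about binding.

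**Figure D1:**
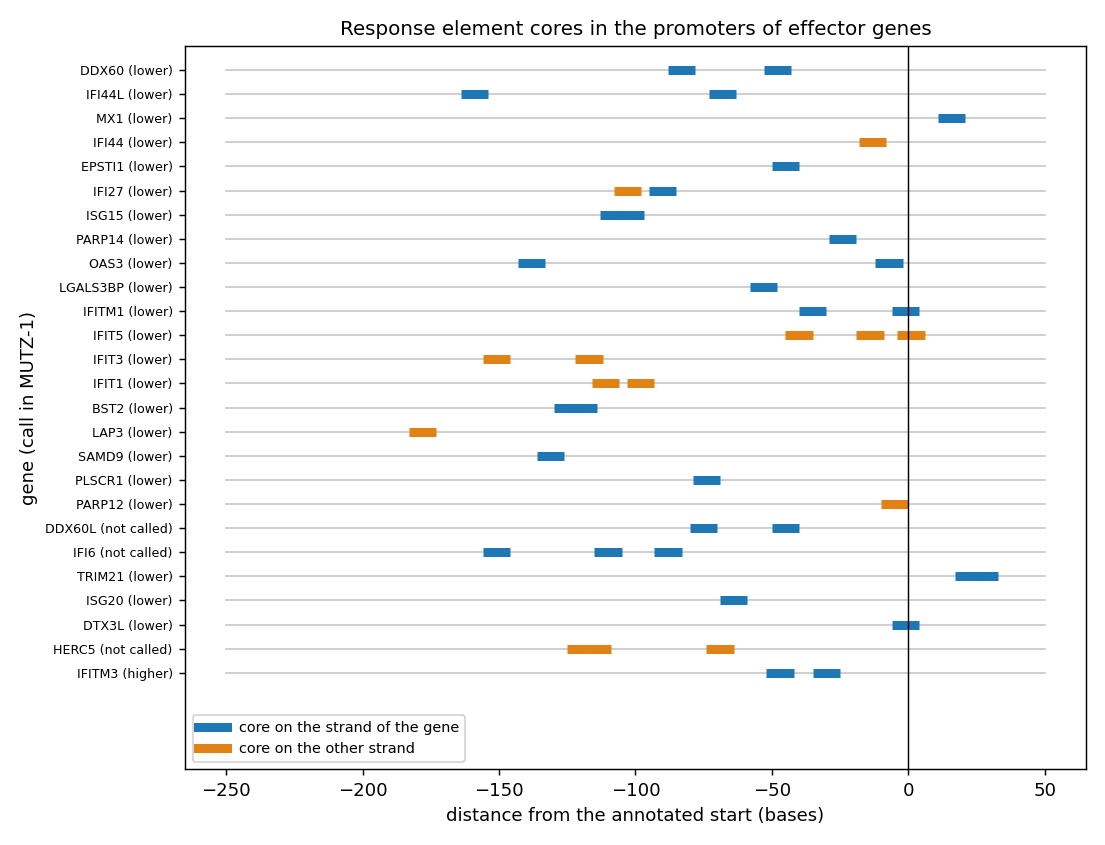
Positions of ISRE cores (bars) in the promoters of the 26 members that hold one, as distance in bases from the annotated start, sorted by their change in MUTZ-1. Of 44 cores, 38 end before the start, and members called lower and members not called both hold cores.

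In MUTZ-1 the effector genes were lower after NUDT21 knockdown, with most tested members of each of the 10 role groups called lower. Of 48 tested members, 42 were called lower (24.6% of all 13625 genes tested were called lower) and 2 higher (24.4% of all genes), IFIT2 and IFITM3. A fall of at least 2-fold was called for 24 members, against 1.64% of all genes. In 43 of 48 every knockdown library lay under every control library, which held for 26.7% of all genes. The median log2 fold change of the members was -1.00, and 0 over all genes tested. The median was -1.04 with OAS3, XAF1 and DDX60, at 3 counts or fewer after knockdown, set to their bound or count ratio. HERC5 was left out there for having no count, and DDX60L, with 3 and 2 counts in the groups, kept its fitted value. Of all genes called in MUTZ-1, 49.8% were higher, and 60.7% when scaled by library totals alone or 61.1% and 61.2% on the FPKM scales. The members not called were IFITM2, IFI6, DDX60L and HERC5. The summed level of all members was 2109 ± 11.4 CPM in control libraries and 1045 ± 7.02 CPM after knockdown (SD, n = 3). Among the 32 members with a mean of at least 5 CPM over the 6 libraries, 30 were called lower (31.8% of the 9713 genes at that level) and 1 higher (28.1%).

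**Figure D2:**
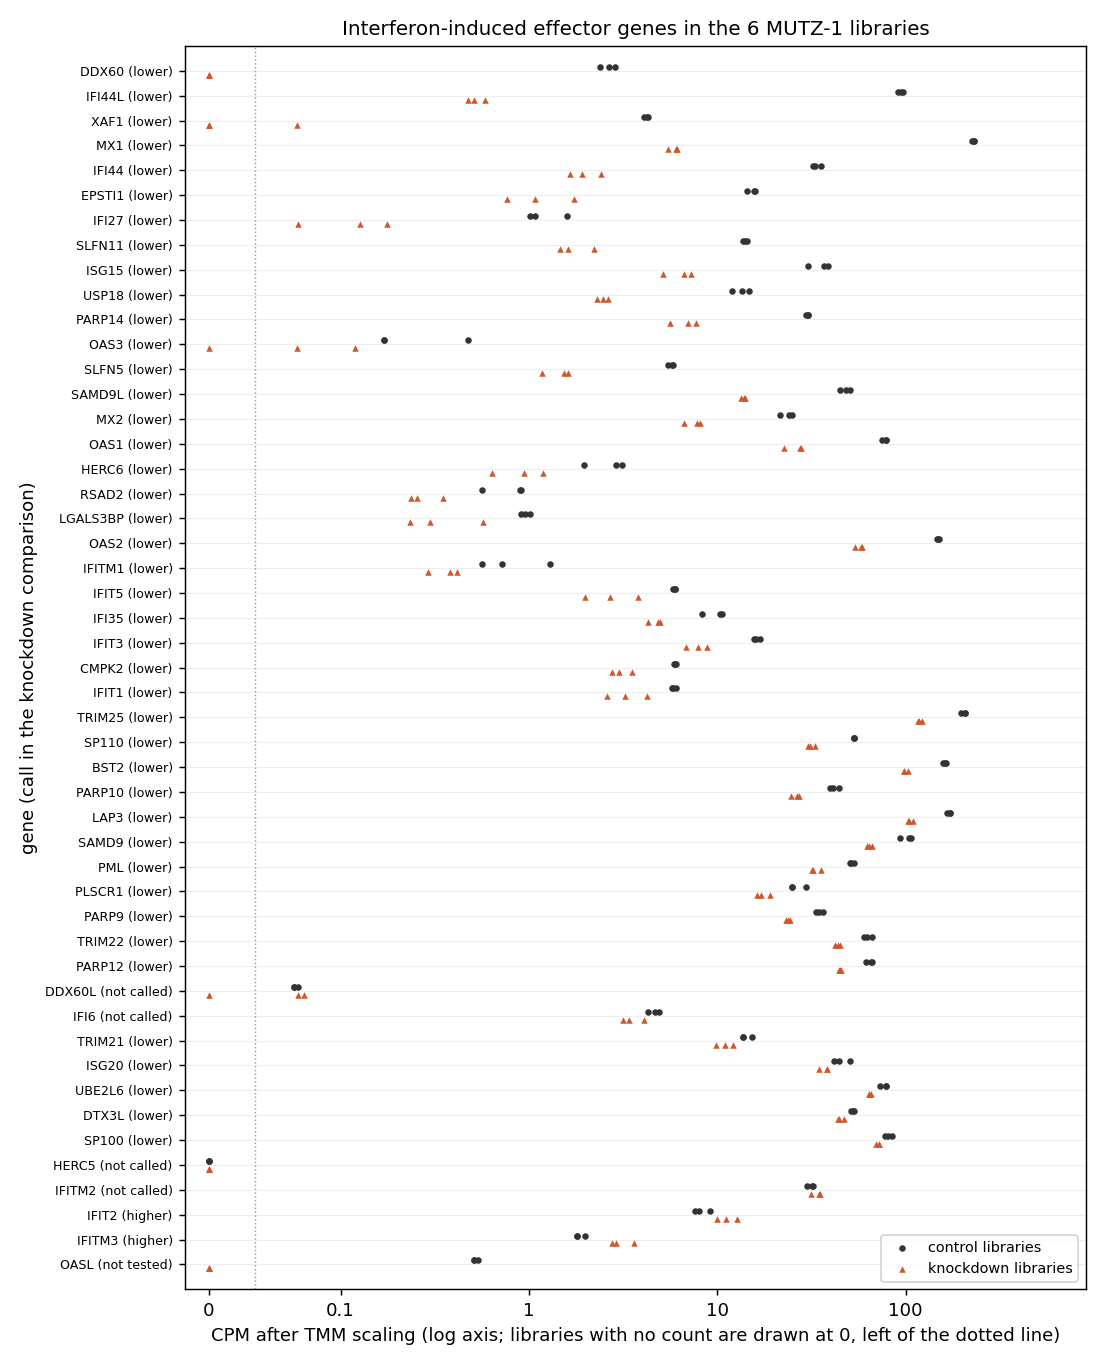
CPM after TMM scaling (log axis) of the 49 members in the 3 control (circles) and 3 knockdown (triangles) libraries of MUTZ-1, sorted by log2 fold change, with the call beside each name. The symbols of both groups stand apart for 46 of 49 members and overlap for HERC5, IFITM2 and DDX60L.

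In SKM-1 the same genes split in both directions. Of 48, 20 were called higher (42.1% of all genes tested) and 15 lower (42.3%), so that the members' shares of 41.7% and 31.2% were near or below those of all genes. Among the 24 members with a mean of at least 5 CPM over the 6 SKM-1 libraries, 17 were called higher and 5 lower. Their shares were 70.8% and 20.8%, against 47.4% and 40.98% of the 10748 genes at that level. The median log2 fold change was 0.55 against 0.07. That mean includes the knockdown libraries, so the filter depends on the change itself. CMPK2, PARP9, DTX3L and SP110, called higher, were at 3.41, 3.99, 4.70 and 4.39 CPM in control libraries and passed through their knockdown level. HERC5, HERC6 and IFIT1, called lower, were at 8.49, 8.91 and 8.12 CPM in control libraries and failed through theirs. The shares at this level therefore cannot be read as an excess of rises. A rise of at least 2-fold was called for 12 members (12.6% of all genes) and a fall of at least 2-fold for 12 (22.5% of all genes), with a median log2 fold change of 0.00. The summed level went from 1012 ± 8.49 to 1556 ± 22.9 CPM, and without IFITM1, IFITM2 and IFITM3 from 571 ± 0.335 to 833 ± 2.88 CPM (SD, n = 3).

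The change itself differed between the lines for 34 of 48 members, a share of 70.8% against 72.0% of all genes. It was more negative in MUTZ-1 for 26 (35.6% of all genes) and more positive for 8 (36.4%). The members called lower in MUTZ-1 and higher in SKM-1 numbered 19, a pairing of calls found in 14.96% of all genes. For 19 of these 19 the difference was called too, which opposite calls in the same fit make all but certain, so it adds no support. A further 12 (25.0% of the members) were called lower in both lines, against 6.58% of all genes. Since 87.5% of the members were called lower in MUTZ-1, against 24.6% of all genes, that share alone raises both pairings. They therefore show no relation between the lines. In the control libraries, 35 members were higher on the MUTZ-1 side (41.4% of all genes) and 10 were lower (48.8%).

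**Figure D3:**
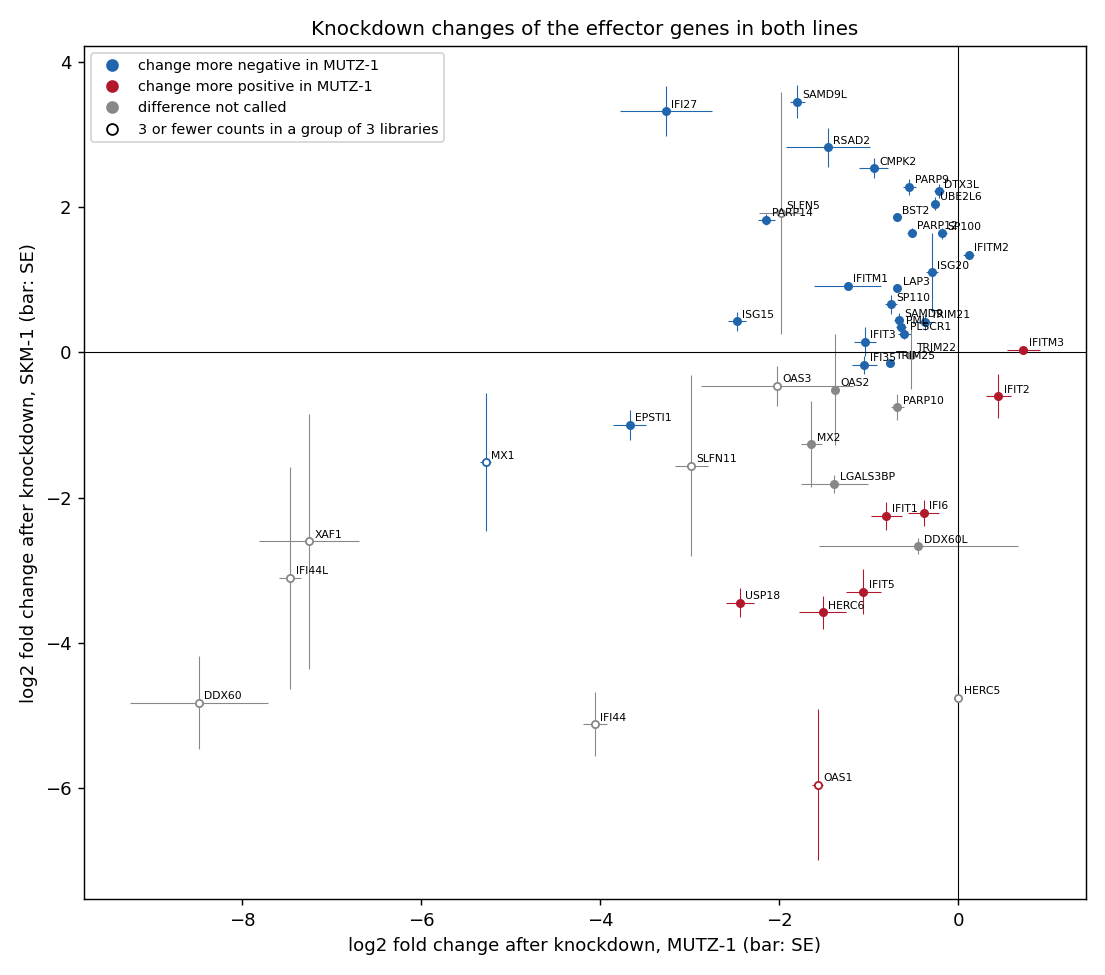
Log2 fold change after knockdown with SE for each tested member, MUTZ-1 on the x axis and SKM-1 on the y axis. Points are coloured by the test of the difference and drawn hollow where a group of 3 libraries held 3 or fewer counts. DDX60L, with 3 and 2 counts in the MUTZ-1 groups, is the exception and is drawn filled. Most filled points lie left of 0, and they spread to both sides of 0 on the y axis.

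Levels per transcript length put different members first in each line. By mean FPKM in MUTZ-1 control libraries the order was BST2 at 154 ± 3.68, LAP3 at 73.5 ± 1.15, UBE2L6 at 56.5 ± 2.68, ISG15 at 53.1 ± 6.77 and MX1 at 37.6 ± 0.615 FPKM (SD, n = 3). UBE2L6 and ISG15 did not differ beyond their spread, while the other neighbours in this order did. In SKM-1 control libraries the order was IFITM1 at 404 ± 10.8, IFITM3 at 262 ± 7.88, BST2 at 41.2 ± 1.08, LAP3 at 39.4 ± 0.884 and IFITM2 at 33.8 ± 1.39 FPKM, where the mean ± SD ranges of BST2 and LAP3 overlapped. At the other end, 11 members were under 0.5 CPM in both SKM-1 groups. Over the 6 SKM-1 libraries SLFN5 had 1 count, XAF1 2, IFI44L 3, SLFN11 5, OASL 6, MX1 9, OAS2 13, OAS1 24, MX2 26, ISG20 27 and TRIM22 34 counts. The text gives no fold in SKM-1 for SLFN5, XAF1 and IFI44L, whose counts are at or under a floor of 3, so that a change was not detectable at this depth. Their fitted values are drawn in the figures only.

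The MX proteins are dynamin-like GTPases that trap viral nucleocapsids. MX1 was among the highest members of MUTZ-1, at 224, 231 and 231 CPM with the control hairpin and 6.04, 6.11 and 5.48 CPM with the NUDT21 hairpin (log2FC -5.28 ± 0.06 SE, adjusted p = 3.28e-160). The knockdown libraries of MX1 all lay far under the controls and close together. In SKM-1 the gene was at trace level, with 7 counts in the control and 2 in the knockdown libraries, a ratio of 3.18 with a 95% interval for counting error of 0.606 to 31.4. Its neighbour MX2, which acts against retroviruses and lies with MX1 at chr21:41361943-41459214 (GRCh38, GENCODE 29), stood at 21.5, 23.9 and 24.9 CPM with the control hairpin and 8.09, 7.76 and 6.67 CPM with the NUDT21 hairpin in MUTZ-1 (log2FC -1.64 ± 0.12 SE, adjusted p = 4.47e-29). In SKM-1 MX2 had 0.449, 0.326 and 0.287 CPM in control and 0.125, 0.299 and 0 CPM in knockdown libraries, which overlapped. It was called lower there (log2FC -1.26 ± 0.59 SE, adjusted p = 0.0402), a call lost without control replicate 1 (adjusted p = 0.132), knockdown replicate 1 (0.0818) or knockdown replicate 3 (0.269).

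Members of the IFI group, small induced proteins of varied or poorly known function, had some of the largest falls. IFI44L was at 94.1, 91.2 and 96.7 CPM with the control hairpin and 0.586, 0.509 and 0.476 CPM with the NUDT21 hairpin in MUTZ-1 (log2FC -7.47 ± 0.13 SE, adjusted p = 6.42e-128). IFI44, whose gene lies 3650 bases from IFI44L in the window chr1:78619922-78664078, was at 35.4, 32.0 and 33.0 CPM with the control hairpin and 2.40, 1.65 and 1.90 CPM with the NUDT21 hairpin (log2FC -4.06 ± 0.14 SE, adjusted p = 3.61e-74). For both genes every knockdown library lay far under every control library. EPSTI1, known from epithelial and stromal interaction, stood at 14.4, 15.6 and 15.8 CPM with the control hairpin and 0.762, 1.08 and 1.73 CPM with the NUDT21 hairpin in MUTZ-1 (log2FC -3.67 ± 0.18 SE, adjusted p = 4.98e-48). In SKM-1 EPSTI1 was at 3.26, 3.53 and 3.56 CPM with the control hairpin and 2.26, 1.495 and 1.43 CPM with the NUDT21 hairpin (log2FC -1.00 ± 0.21 SE, adjusted p = 5.92e-06). That fall lay close to the median of the genes on its chromosome in SKM-1, where chromosome 13 had a median log2 fold change of -1.04. The other 14 members called lower in SKM-1 lay under the median of their chromosome, and all 20 called higher lay above it, SAMD9 by only 0.02.

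XAF1, an antagonist of the apoptosis inhibitor XIAP, had 4.25, 4.06 and 4.30 CPM in MUTZ-1 control libraries and a single count in the 3 knockdown libraries, a ratio of summed counts of 208 with a 95% interval of 37.0 to 8272. IFI27, a mitochondrial protein, stood at 1.59, 1.02 and 1.07 CPM with the control hairpin and 0.176, 0.127 and 0.0595 CPM with the NUDT21 hairpin in MUTZ-1 (log2FC -3.27 ± 0.52 SE, adjusted p = 1.13e-08). In SKM-1 IFI27 was at 0.225, 0.380 and 0.402 CPM with the control hairpin and 3.38, 3.47 and 3.41 CPM with the NUDT21 hairpin (log2FC 3.32 ± 0.35 SE, adjusted p = 5.1e-18). The lines therefore moved in opposite directions for IFI27, from low levels in both. IFI44 was lower in SKM-1 too, with 128 counts in control and 3 in knockdown libraries, a ratio of 38.8 (95% interval 12.99 to 190.7). IFI6, which keeps viruses from remodelling the endoplasmic reticulum, was not called in MUTZ-1 (adjusted p = 0.0592) although its groups did not overlap, and in SKM-1 its mean fell to 2.01 CPM, having been 9.34 CPM (log2FC -2.21 ± 0.18 SE, adjusted p = 2.85e-26). IFI35 fell in MUTZ-1 from 9.71 to 4.69 CPM and was not called in SKM-1 (adjusted p = 0.201). Of the 7 members of this group, 6 were called lower in MUTZ-1, and in SKM-1 3 were called lower and 1 higher.

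The oligoadenylate synthetases make the second messenger that activates RNase L, and ISG20 is an exonuclease. OAS1 stood at 74.8, 78.2 and 78.1 CPM with the control hairpin and 27.4, 27.7 and 22.6 CPM with the NUDT21 hairpin in MUTZ-1 (log2FC -1.57 ± 0.06 SE, adjusted p = 1.13e-59). In SKM-1 it had 24 counts in control libraries and none after knockdown, at least 7.28-fold lower by a floor of 3 counts over the group. OAS2, the last gene of the cluster at chr12:112906777-113011723, fell in MUTZ-1 from a mean of 149 to 57.0 CPM (log2 fold change -1.38). ISG20 fell from 45.5 to 37.0 CPM. OAS3, between them, was at a low level in MUTZ-1, with 14 counts in control and 3 in knockdown libraries (ratio 4.44, 95% interval 1.24 to 24.1), and its call was lost without control replicate 2 (adjusted p = 0.289), knockdown replicate 1 (0.087) or knockdown replicate 2 (0.164). OASL, which lacks synthetase activity and was not tested, had 27 counts in MUTZ-1 control libraries and none after knockdown, at least 8.57-fold lower.

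The IFIT proteins bind RNA, and IFIT1 binds viral RNA that lacks the host cap methylation. Here the 4 genes, which lie together at chr10:89283694-89421001, did not move as one. IFIT2 rose in MUTZ-1, from 9.17, 8.004 and 7.64 CPM to 11.1, 9.93 and 12.8 CPM with no overlap (log2FC 0.45 ± 0.14 SE, adjusted p = 0.00345). Its neighbours IFIT3 (mean 16.2 to 7.84 CPM), IFIT5 (5.93 to 2.83 CPM) and IFIT1 fell. IFIT1 was at 5.77, 6.03 and 5.83 CPM with the control hairpin and 3.22, 2.61 and 4.23 CPM with the NUDT21 hairpin in MUTZ-1 (log2FC -0.80 ± 0.17 SE, adjusted p = 2.49e-05). In SKM-1 IFIT1 was at 8.26, 8.68 and 7.41 CPM with the control hairpin and 1.504, 2.09 and 1.49 CPM with the NUDT21 hairpin (log2FC -2.25 ± 0.19 SE, adjusted p = 4.57e-25). IFIT5 fell there as well (3.69 to 0.367 CPM), and IFIT2 and IFIT3 were not called.

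ISG15 is a ubiquitin-like protein that is attached to targets by UBE2L6 and HERC5 and removed by USP18, which also damps interferon receptor signalling. ISG15 stood at 36.6, 38.9 and 30.2 CPM with the control hairpin and 7.21, 6.62 and 5.18 CPM with the NUDT21 hairpin in MUTZ-1 (log2FC -2.47 ± 0.10 SE, adjusted p = 8.51e-56). In SKM-1 the values were 6.29, 5.21 and 6.38 CPM with the control hairpin and 8.52, 8.19 and 7.32 CPM with the NUDT21 hairpin (log2FC 0.43 ± 0.13 SE, adjusted p = 0.00116). The groups did not overlap in either line. UBE2L6, the conjugating enzyme, was at 79.0, 79.0 and 72.7 CPM with the control hairpin and 63.8, 65.2 and 63.6 CPM with the NUDT21 hairpin in MUTZ-1 (log2FC -0.26 ± 0.05 SE, adjusted p = 1.69e-06). Its SKM-1 values were 5.90, 6.84 and 5.98 CPM with the control hairpin and 24.4, 26.7 and 26.5 CPM with the NUDT21 hairpin (log2FC 2.05 ± 0.09 SE, adjusted p = 5.46e-60). The modifier and its conjugating enzyme thus fell together in MUTZ-1 but rose in SKM-1.

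USP18 went down in both lines. It was at 12.002, 14.7 and 13.5 CPM with the control hairpin and 2.29, 2.48 and 2.62 CPM with the NUDT21 hairpin in MUTZ-1 (log2FC -2.44 ± 0.16 SE, adjusted p = 5.37e-35). In SKM-1 the values were 11.7, 10.1 and 8.504 CPM with the control hairpin and 0.815, 1.08 and 0.869 CPM with the NUDT21 hairpin (log2FC -3.45 ± 0.20 SE, adjusted p = 2.91e-42). Of the 50-base windows of its transcript, 23.4% also occur in another gene, chiefly USP41, so its values are uncertain where reads were split. HERC5, the ligase for ISG15, had no count in the 6 MUTZ-1 libraries, which allows up to 0.0576 CPM in the control group, and in SKM-1 it was at 8.60, 8.20 and 8.68 CPM with the control hairpin and 0.251, 0.359 and 0.310 CPM with the NUDT21 hairpin (log2FC -4.75 ± 0.29 SE, adjusted p = 7.8e-38). HERC6, its close relative, was at 8.93, 8.30 and 9.48 CPM with the control hairpin and 0.689, 0.718 and 0.807 CPM with the NUDT21 hairpin in SKM-1 (log2FC -3.58 ± 0.23 SE, adjusted p = 1.39e-35) and fell in MUTZ-1 from a mean of 2.66 to 0.921 CPM. Within this system the ligase and the protease fell in SKM-1 while ISG15 and UBE2L6 rose.

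IFITM proteins block the fusion of viruses with endosomes and the cell surface. IFITM1 was the highest member of SKM-1 and near absent in MUTZ-1. In SKM-1 the values were 263, 249.999 and 256 CPM with the control hairpin and 488, 495 and 471 CPM with the NUDT21 hairpin (log2FC 0.92 ± 0.03 SE, adjusted p = 1.13e-87). In MUTZ-1 it was at 0.566, 0.717 and 1.30 CPM with the control hairpin and 0.293, 0.382 and 0.417 CPM with the NUDT21 hairpin (log2FC -1.23 ± 0.37 SE, adjusted p = 0.00318), a call lost without control replicate 3 (adjusted p = 0.156). The lines differ here by a wide margin before any knockdown. IFITM3 was at 1.98, 1.79 and 1.81 CPM with the control hairpin and 2.75, 3.63 and 2.92 CPM with the NUDT21 hairpin in MUTZ-1 (log2FC 0.73 ± 0.19 SE, adjusted p = 0.000426). At 152, 147 and 157 CPM with the control hairpin and 156, 162 and 151 CPM with the NUDT21 hairpin it was not called in SKM-1 (adjusted p = 0.277). IFITM3 thus rose from a low level in MUTZ-1 and overlapped between the groups in SKM-1. IFITM2 was not called in MUTZ-1, at 30.0, 31.7 and 32.1 CPM with the control hairpin and 34.8, 31.6 and 34.996 CPM with the NUDT21 hairpin (adjusted p = 0.109). In SKM-1 IFITM2 was at 32.0, 33.7 and 31.1 CPM with the control hairpin and 81.1, 86.0 and 78.7 CPM with the NUDT21 hairpin (log2FC 1.34 ± 0.05 SE, adjusted p = 3.85e-64). Of the 50-base windows of these transcripts, 42.3% (IFITM1), 15.8% (IFITM2) and 20.3% (IFITM3) also occur in other genes, so reads could have been split between them. In the GENCODE annotation, IFITM1 (chr11:313506-315272) also lies wholly inside the span of IFITM2 (chr11:307631-315272) on the same strand. Strand therefore could not tell their reads apart in that stretch. Whether this overlap has a part in the values of IFITM1 and IFITM2 was not tested.

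Other proteins at membranes and in nucleotide metabolism moved apart by line. BST2, which tethers budding virus to the cell, was at 162, 164 and 157 CPM with the control hairpin and 103, 98.2 and 98.3 CPM with the NUDT21 hairpin in MUTZ-1 (log2FC -0.69 ± 0.03 SE, adjusted p = 9.34e-48). In SKM-1 BST2 was at 40.2, 38.3 and 38.8 CPM with the control hairpin and 145, 143 and 138 CPM with the NUDT21 hairpin (log2FC 1.86 ± 0.04 SE, adjusted p = 4.18e-108). BST2 thus fell with knockdown in MUTZ-1 but rose in SKM-1, with no overlap between groups in either line. PLSCR1, a scramblase that restricts viral entry, was at 25.0, 25.0 and 29.5 CPM with the control hairpin and 16.99, 19.2 and 16.3 CPM with the NUDT21 hairpin in MUTZ-1 (log2FC -0.60 ± 0.08 SE, adjusted p = 1.39e-12). In SKM-1 PLSCR1 was at 31.5, 31.5 and 33.3 CPM with the control hairpin and 38.6, 39.2 and 37.0 CPM with the NUDT21 hairpin (log2FC 0.26 ± 0.07 SE, adjusted p = 0.000189).

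RSAD2 (viperin) makes a chain-terminating nucleotide from CTP, which CMPK2 supplies; the genes overlap at chr2:6840570-6898239 on opposite strands, and reads could not be told apart if strand was not used. RSAD2 was low in MUTZ-1, at 0.566, 0.896 and 0.905 CPM with the control hairpin and 0.352, 0.255 and 0.238 CPM with the NUDT21 hairpin (log2FC -1.46 ± 0.46 SE, adjusted p = 0.00524). In SKM-1 the values were 0.787, 0.706 and 0.862 CPM with the control hairpin and 7.02, 5.74 and 4.03 CPM with the NUDT21 hairpin (log2FC 2.83 ± 0.27 SE, adjusted p = 1.13e-20). CMPK2 was at 5.94, 5.85 and 6.05 CPM with the control hairpin and 2.75, 2.99 and 3.51 CPM with the NUDT21 hairpin in MUTZ-1 (log2FC -0.95 ± 0.16 SE, adjusted p = 1.78e-07) and at 3.82, 2.28 and 4.14 CPM with the control hairpin and 21.1, 18.7 and 19.6 CPM with the NUDT21 hairpin in SKM-1 (log2FC 2.54 ± 0.14 SE, adjusted p = 4.32e-45). The pair fell together in MUTZ-1 and rose together in SKM-1.

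PARP9 and DTX3L form a complex that joins ubiquitin to ADP-ribose, and PARP12 and PARP14 add single ADP-ribose units to proteins. PARP14 was at 30.1, 29.4 and 30.3 CPM with the control hairpin and 5.63, 7.70 and 7.02 CPM with the NUDT21 hairpin in MUTZ-1 (log2FC -2.15 ± 0.09 SE, adjusted p = 1.37e-57). In SKM-1 the values were 12.9, 15.1 and 12.01 CPM with the control hairpin and 49.6, 44.5 and 48.3 CPM with the NUDT21 hairpin (log2FC 1.83 ± 0.08 SE, adjusted p = 2.94e-61). PARP14 thus lay under all controls in MUTZ-1 and above all controls in SKM-1. PARP9 was at 34.5, 33.2 and 36.2 CPM with the control hairpin and 23.7, 23.0 and 24.3 CPM with the NUDT21 hairpin in MUTZ-1 (log2FC -0.55 ± 0.07 SE, adjusted p = 1.26e-11). The SKM-1 values of PARP9 were 3.82, 4.29 and 3.85 CPM with the control hairpin and 19.4, 18.7 and 20.04 CPM with the NUDT21 hairpin (log2FC 2.28 ± 0.11 SE, adjusted p = 2.11e-53). PARP9 and DTX3L overlap on opposite strands, so their reads could not be told apart if strand was not used. DTX3L was at 52.9, 52.6 and 51.0 CPM with the control hairpin and 46.9, 43.7 and 44.1 CPM with the NUDT21 hairpin in MUTZ-1 (log2FC -0.22 ± 0.06 SE, adjusted p = 0.00102). In SKM-1 DTX3L was at 4.27, 4.72 and 5.11 CPM with the control hairpin and 19.99, 23.2 and 22.5 CPM with the NUDT21 hairpin (log2FC 2.22 ± 0.10 SE, adjusted p = 4.06e-57). All 5 genes of this group were called lower in MUTZ-1, and 4 were called higher in SKM-1.

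PARP12 was at 65.4, 66.1 and 61.5 CPM with the control hairpin and 44.8, 44.1 and 45.6 CPM with the NUDT21 hairpin in MUTZ-1 (log2FC -0.52 ± 0.05 SE, adjusted p = 3.63e-18) and at 16.7, 17.3 and 16.4 CPM with the control hairpin and 55.5, 50.4 and 52.7 CPM with the NUDT21 hairpin in SKM-1 (log2FC 1.65 ± 0.06 SE, adjusted p = 3.17e-67). PARP10, a further mono-ADP-ribosyltransferase, fell in both lines, from a mean of 41.8 to 26.0 CPM in MUTZ-1 and, in SKM-1, 3.55 to 2.10 CPM.

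The SAMD9 proteins restrict poxviruses and lower translation, and Schlafens act on transfer RNA. SAMD9L was at 48.2, 44.9 and 50.6 CPM with the control hairpin and 13.4, 13.8 and 14.05 CPM with the NUDT21 hairpin in MUTZ-1 (log2FC -1.80 ± 0.08 SE, adjusted p = 4.87e-54). In SKM-1 the values were 0.449, 0.271 and 0.632 CPM with the control hairpin and 5.20, 4.37 and 5.40 CPM with the NUDT21 hairpin (log2FC 3.45 ± 0.23 SE, adjusted p = 5.78e-34). SAMD9L thus fell in one line and, from a trace level, rose in the other. SAMD9, its neighbour at chr7:93099513-93148369, was at 107, 93.8 and 104 CPM with the control hairpin and 63.8, 62.0 and 66.1 CPM with the NUDT21 hairpin in MUTZ-1 (log2FC -0.67 ± 0.05 SE, adjusted p = 3.41e-30) and at 6.46, 7.54 and 7.87 CPM with the control hairpin and 9.27, 10.2 and 10.2 CPM with the NUDT21 hairpin in SKM-1 (log2FC 0.44 ± 0.10 SE, adjusted p = 3.47e-05), where the median log2 fold change of chromosome 7 was 0.42. SLFN11, known for the response to DNA damage, was at 13.7, 14.5 and 14.1 CPM with the control hairpin and 2.23, 1.46 and 1.61 CPM with the NUDT21 hairpin in MUTZ-1 (log2FC -2.98 ± 0.18 SE, adjusted p = 6.18e-37). It shares 12.4% of its 50-base windows with other genes, chiefly SLFN13. SLFN5 was at 5.77, 5.496 and 5.83 CPM with the control hairpin and 1.17, 1.53 and 1.61 CPM with the NUDT21 hairpin in MUTZ-1 (log2FC -1.99 ± 0.24 SE, adjusted p = 2.77e-13).

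DDX60, a helicase-like protein, had 137 counts in MUTZ-1 control libraries and none after knockdown, at least 43.5-fold lower by the floor of 3 counts over the group. In SKM-1 it had 73 and 2 counts, a ratio of 33.2 (95% interval 8.87 to 279). DDX60L, beside it on chromosome 4, was near absent in MUTZ-1, and in SKM-1 it was at 32.7, 32.6 and 34.5 CPM with the control hairpin and 4.57, 5.08 and 6.02 CPM with the NUDT21 hairpin (log2FC -2.67 ± 0.11 SE, adjusted p = 1.08e-59).

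PML and SP100 build nuclear bodies that hold viral genomes in check, and TRIM proteins are ubiquitin ligases. All 6 genes of this group were called lower in MUTZ-1, none by 2-fold or more. SP100 was at 80.8, 84.6 and 77.7 CPM with the control hairpin and 72.5, 72.5 and 69.7 CPM with the NUDT21 hairpin in MUTZ-1 (log2FC -0.18 ± 0.05 SE, adjusted p = 0.000561). In SKM-1 SP100 was at 10.8, 9.34 and 8.62 CPM with the control hairpin and 30.6, 28.95 and 30.2 CPM with the NUDT21 hairpin (log2FC 1.64 ± 0.08 SE, adjusted p = 9.53e-54). The fall of SP100 in MUTZ-1 was small beside its rise in SKM-1. SP110, a related nuclear body protein, was at 53.1, 52.9 and 53.3 CPM with the control hairpin and 32.9, 30.4 and 30.9 CPM with the NUDT21 hairpin in MUTZ-1 (log2FC -0.76 ± 0.07 SE, adjusted p = 5.34e-22) and at 5.79, 3.64 and 3.73 CPM with the control hairpin and 6.77, 6.46 and 7.63 CPM with the NUDT21 hairpin in SKM-1 (log2FC 0.66 ± 0.13 SE, adjusted p = 9.69e-07). Of the 50-base windows of SP100, 13.3% also occur in other genes, HMGB1 copies among them.

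PML was at 50.5, 53.2 and 51.2 CPM with the control hairpin and 31.6, 35.6 and 32.1 CPM with the NUDT21 hairpin in MUTZ-1 (log2FC -0.64 ± 0.06 SE, adjusted p = 6.46e-22) and at 41.0, 43.5 and 42.4 CPM with the control hairpin and 49.4, 58.1 and 53.5 CPM with the NUDT21 hairpin in SKM-1 (log2FC 0.34 ± 0.05 SE, adjusted p = 2.08e-09). TRIM21, an antibody receptor in the cytosol, was at 13.8, 13.7 and 15.3 CPM with the control hairpin and 12.1, 9.86 and 10.95 CPM with the NUDT21 hairpin in MUTZ-1 (log2FC -0.37 ± 0.10 SE, adjusted p = 0.0013) and at 9.72, 10.96 and 10.3 CPM with the control hairpin and 13.1, 12.8 and 15.6 CPM with the NUDT21 hairpin in SKM-1 (log2FC 0.42 ± 0.11 SE, adjusted p = 0.000124). TRIM25, which modifies RIG-I, fell in MUTZ-1 from a mean of 202 to 119 CPM and by less in SKM-1, from 153 to 139 CPM. TRIM22 fell in MUTZ-1 from 62.9 to 43.5 CPM.

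LAP3, a leucine aminopeptidase, was at 166, 171 and 171 CPM with the control hairpin and 109.6, 104 and 103 CPM with the NUDT21 hairpin in MUTZ-1 (log2FC -0.68 ± 0.03 SE, adjusted p = 1.82e-48) and at 83.9, 83.04 and 80.6 CPM with the control hairpin and 153, 158 and 146 CPM with the NUDT21 hairpin in SKM-1 (log2FC 0.89 ± 0.04 SE, adjusted p = 1.2e-63). LGALS3BP, a secreted glycoprotein that binds galectins, fell in both lines, from a mean of 0.960 to 0.368 CPM in MUTZ-1 and, in SKM-1, 23.3 to 6.62 CPM.

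**Figure D4:**
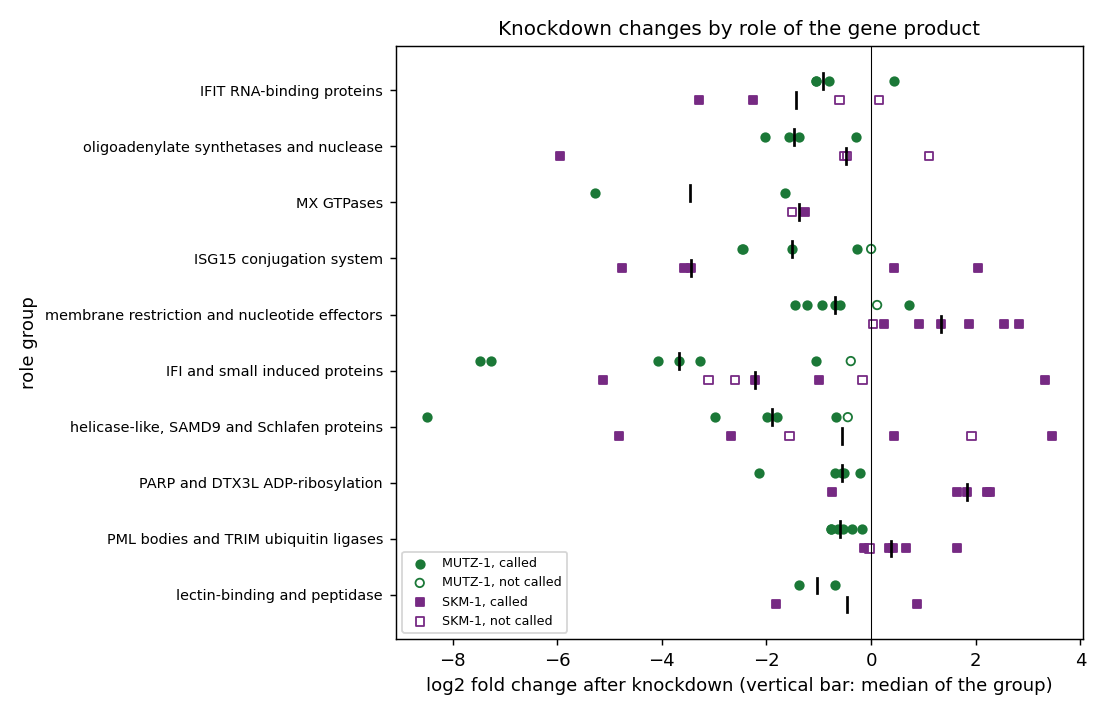
Log2 fold changes after knockdown of the 48 tested members by role, MUTZ-1 as circles and SKM-1 as squares, filled where called, with the median of each group as a vertical bar. Values of genes with few counts come from the fit and are no bounds, such as DDX60, HERC5 in MUTZ-1, and OAS1, SLFN5, XAF1 and IFI44L in SKM-1. All 10 MUTZ-1 medians lie left of 0, and the SKM-1 medians lie on both sides.

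**Figure D5:**
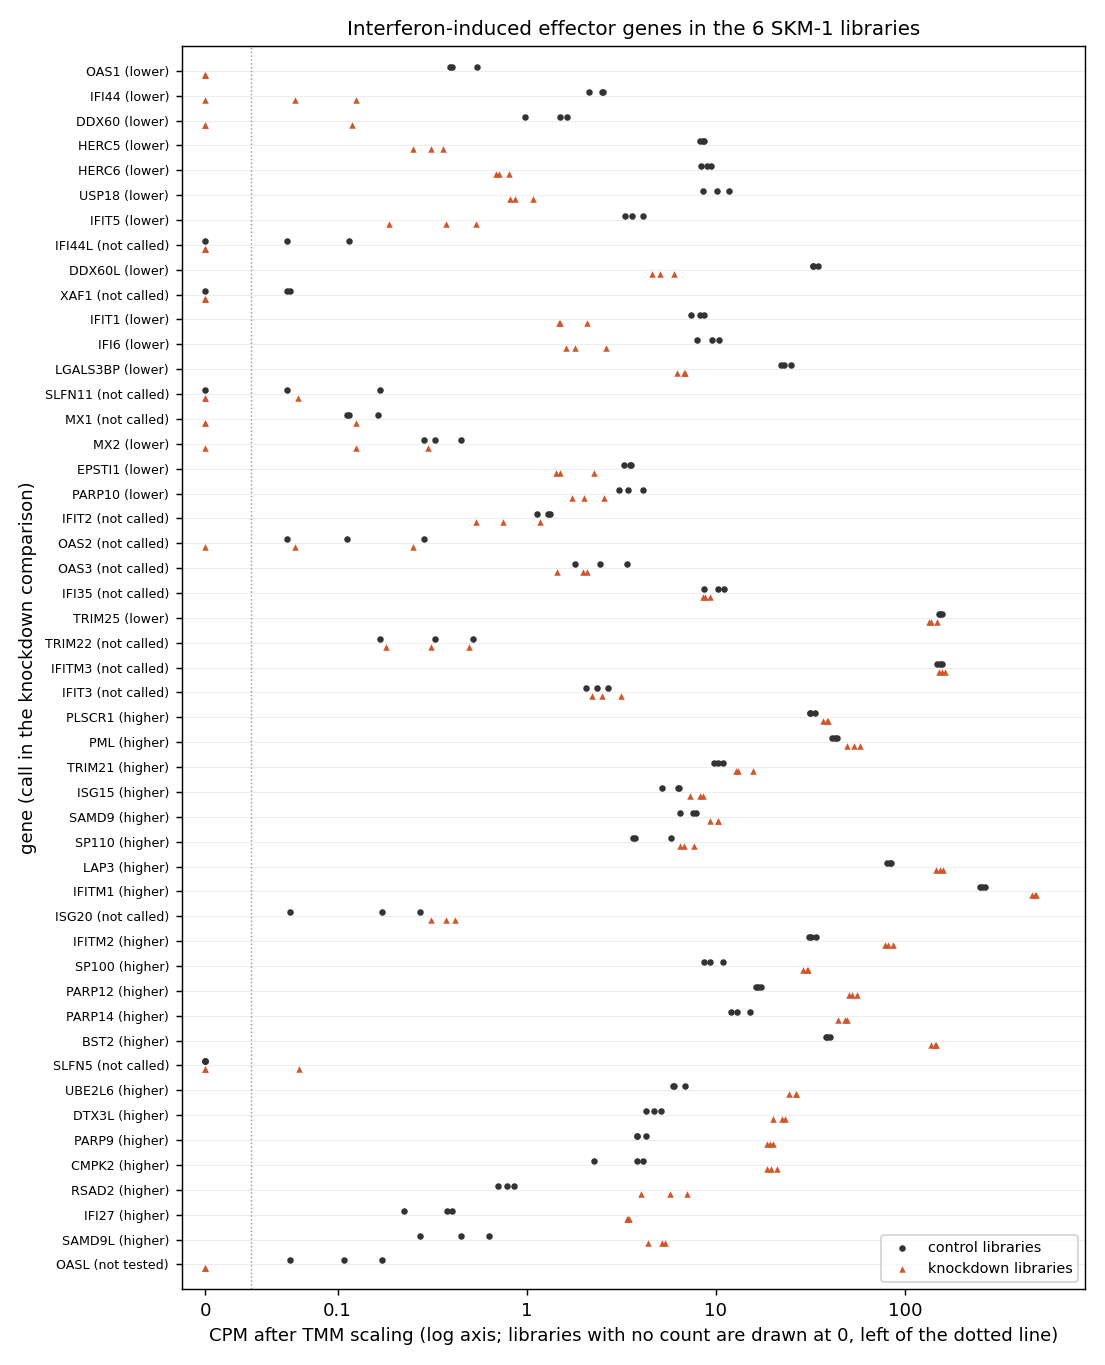
CPM after TMM scaling (log axis) of the 49 members in the 3 control (circles) and 3 knockdown (triangles) libraries of SKM-1, sorted by log2 fold change, with the call beside each name. The groups overlap for 13 of 49 members, and 11 members lie under 0.5 CPM in both groups.

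The interferon pathway genes outside the effector set were counted from a list of 68, of which 53 were in the table and 43 were tested. In MUTZ-1 24 were called lower (55.8%, against 24.6% of all genes) and 4 higher (9.30%, against 24.4%). In SKM-1 16 were lower (37.2%, against 42.3%) and 20 higher (46.5%, against 42.1%), near the shares of all genes. Of the ISGF3 parts, IRF9 fell in MUTZ-1, at 38.2, 40.7 and 39.8 CPM with the control hairpin and 7.91, 9.80 and 9.11 CPM with the NUDT21 hairpin (log2FC -2.15 ± 0.09 SE, adjusted p = 7.92e-61). STAT2 was not called, at 56.8, 57.0 and 56.2 CPM with the control hairpin and 57.9, 55.6 and 60.4 CPM with the NUDT21 hairpin (adjusted p = 0.603). Of the kinases, JAK1 (adjusted p = 0.539) and JAK2 (0.296) were not called and TYK2 fell by 0.09 on the log2 scale.

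Upstream of them, the receptor subunit IFNAR2 rose in MUTZ-1, from 129 to 204 CPM, while IFNGR1 (26.3 to 21.4 CPM) and IFNLR1 (2.80 to 1.10 CPM) fell. IRF7, which amplifies interferon production, fell from 11.2 to 1.36 CPM, IRF8 fell from 347 to 269 CPM, and IRF5 rose from 8.65 to 12.5 CPM. Among sensors, EIF2AK2 (PKR) fell from 223 to 99.4 CPM, AIM2 from 44.6 to 26.8 CPM and the adaptor MYD88 from 84.9 to 51.8 CPM. The feedback inhibitors SOCS1 (10.4 to 7.31 CPM), PIAS1 (80.9 to 69.8 CPM) and PTPN11 (329 to 310.2 CPM) fell.

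IRF9 fell in SKM-1 too, at 13.7, 13.5 and 13.04 CPM with the control hairpin and 7.58, 9.03 and 8.81 CPM with the NUDT21 hairpin (log2FC -0.66 ± 0.10 SE, adjusted p = 8.8e-10). Of the 7 interferon genes in the table, IFNA1, IFNA14, IFNB1 and IFNE had no count in the 12 libraries, IFNA2 and IFNG had 2 each and IFNL2 had 1. All 5 of these counts were in MUTZ-1 control replicate 1.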

How the data were processed

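Libraries were made from TRIzol-extracted total RNA with a stranded TruSeq mRNA kit, per the labels' protocols. The deposited counts are whole reads per gene, made with fastp, HISAT2 and HTSeq on GRCh38 per the submitters' processing notes, which give no versions. For the annotation, the strand setting and multi-mapped reads the sources used here state nothing. The authors' deposited FPKM values for these libraries served for levels per length and for alternatives.

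Counts were analysed in R 4.3.3 with edgeR 4.0.16. The filterByExpr function kept 13625 of 17518 genes, and the quasi-likelihood test with robust shrinkage and TMM scaling (factors 0.959 to 1.06) was run in 1 fit of 12 libraries with a mean per group. It gave the knockdown effect in each line, their difference (SKM-1 subtracted from MUTZ-1) and the contrast of both lines' controls. Benjamini-Hochberg adjustment ran over all genes tested, and a gene is called at an adjusted p under 0.05. SE is the log2 fold change divided by the root of F. Where a group held no count, folds are bounds from 3 counts over the group, and with 1 to 3 counts ratios with 95% intervals, which cover counting error only. The fit was tested on simulated data made from each gene's mean over all 12 libraries, their sizes and 1 common spread for all genes. Changes were put into the MUTZ-1 knockdown libraries, only in genes with a mean of 1 CPM or more. The fit called 131 of 134 genes changed by 1 or more (log2), 57 of 66 changed by 0.5 and 7 of 13023 unchanged genes. Spread that differs between genes, and changes in genes under 1 CPM, were not simulated.

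Members and lists were chosen with earlier results of these data known. Named members are the 12 with the largest falls in MUTZ-1 at 5 CPM or more, those higher in MUTZ-1, the 5 with the highest FPKM per line, the 8 with the largest changes in SKM-1 at 5 CPM or more, and those called in opposite directions. For each pathway list up to 3 called genes with the largest change, and the JAK-STAT genes, are named, except 1 that is not reported here; other members were named after their values were seen. Shared windows are 50-base stretches of GENCODE 29 transcripts found in another gene. Alternatives were DESeq2 1.42.0, limma 3.58.1 on log2(FPKM + 1) and log2(FPKM + 0.1), other filters and scalings, a replicate block, each line alone and leaving out each library.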

Additional observations from a re-analysis of the deposited data

Results flagged for a closer look

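The knockdown change differed between the lines, by the interaction term of the edgeR fit, for 34 members and 12 of the 17 pathway genes named above. Among all genes tested, 72.0% had a called difference, so the share of 70.8% among the members is near the background. Values are the log2 change in MUTZ-1 minus that in SKM-1.

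The members with a more negative change in MUTZ-1 were IFI27 (-6.59), SAMD9L (-5.25), RSAD2 (-4.28), PARP14 (-3.97), MX1 (-3.77), CMPK2 (-3.48), ISG15 (-2.90), PARP9 (-2.83), EPSTI1 (-2.67), BST2 (-2.55), DTX3L (-2.44), UBE2L6 (-2.31), PARP12 (-2.17), IFITM1 (-2.15), SP100 (-1.82), LAP3 (-1.57), SP110 (-1.42), ISG20 (-1.40), IFITM2 (-1.23), IFIT3 (-1.19), SAMD9 (-1.11), PML (-0.99), IFI35 (-0.88), PLSCR1 (-0.86), TRIM21 (-0.80), TRIM25 (-0.63). Those with a more positive change were OAS1 (4.38), IFIT5 (2.24), HERC6 (2.06), IFI6 (1.82), IFIT1 (1.45), IFIT2 (1.05), USP18 (1.01), IFITM3 (0.69). Without SKM-1 knockdown replicate 1 the value of MX1 was -1.00 (adjusted p = 0.709), and ISG20 was not called without SKM-1 control replicate 1 (adjusted p = 0.115) or knockdown replicate 2 (adjusted p = 0.069). The value of OAS1 rests on a SKM-1 knockdown group with no count and is a fitted value, not a bound.

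Among pathway genes the difference was AIM2 (-4.61), IRF7 (-4.13), MYD88 (-2.72), SOCS1 (-2.26), IRF9 (-1.49), JAK2 (-1.11), EIF2AK2 (-0.55), TYK2 (-0.52), IFNAR2 (0.16), STAT2 (0.16), IFNLR1 (3.97), IRF5 (5.40). Members and pathway genes of the same line share their libraries and are not independent.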

How the results depend on the processing

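Counts of members called lower in MUTZ-1 were 37 to 43 under the alternatives and 41 to 42 with each library left out, and in SKM-1 members called lower numbered 13 to 17 and members called higher 20 to 21. Members at least 2-fold lower in MUTZ-1 numbered 24, and 13 with log2(FPKM + 1). In SKM-1 they numbered 12, and 7 with log2(FPKM + 1). This pseudocount shrinks the change of low genes. In MUTZ-1 members higher numbered 2 to 3 with each library left out, and 3 with library totals alone, with at least 1 CPM in 3 libraries and on both FPKM scales, where IFITM2 was called (log2 fold change 0.16 with library totals alone). The difference between the lines reversed for OAS1 (-1.234 with log2(FPKM + 1), -0.3535 with log2(FPKM + 0.1)) and IFI44 (-1.986 and -0.7436), both with 3 or fewer counts in the SKM-1 knockdown group; the cause was not tested. Library totals alone moved the median of all genes by 0.13 in the difference and by -0.14 between control lines.

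Same-numbered libraries did not visibly deviate together (correlations -0.07 to 0.02, against -0.06 to 0.10 for libraries with different numbers). Whether the numbers pair cultures cannot be told from this. With the replicate number as a block, 41 members were lower and 2 higher in MUTZ-1, 14 lower and 20 higher in SKM-1, and 26 and 8 in the difference. Calls lost with the block were those of OAS3 in MUTZ-1 (adjusted p = 0.0523) and MX2 in SKM-1 (0.0506). Between control lines, those of IFIT1, USP18 and DDX60 were lost as well. With the block that contrast was taken at the level of replicate 1 of each line. It is therefore not the contrast of the main fit, and these losses do not measure an effect of pairing. With 15843012 to 18426619 counts per library, depth limits members under 0.5 CPM.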
